A study of Homo sapiens with 4 samples.

Results

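Messenger RNA of 9 genes of antigen presentation was compared between slow-cycling and ungated cells of MDA-MB-231, an established human cell line of triple-negative breast cancer. The genes were HLA-B, HLA-C, HLA-E, B2M, TAP1, TAP2, TAPBP, NLRC5 and CD274, taken by symbol from a count table of 58735 genes. All 9 were among the 14585 genes whose mean over the libraries reached 1 CPM (read counts scaled to library size). Every group came from cells with a TetOn H2B-eGFP reporter that received 5 μg/ml doxycycline for 3 days, were labelled with the dyes Claret and Violet and went through a 12-day chase, over which dividing cells dilute their label. The groups Claret, eGFP and Violet are each the 1% of cells that retained the most of that label. Bulk, the control, shares the reporter, the doxycycline and both dyes, and was sorted with no fluorescence gate. Each of the 4 groups holds 1 library from 1 cell line, so no difference given here has a replicate check, and whether the sorts came from separate cultures is not given in the sources used here.

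The groups follow the sample titles, which the column names of the table match. In every sample the treatment field names another sort: the library titled Bulk is there Claret, that titled Claret is eGFP, that titled eGFP is Violet, and that titled Violet is ungated. MKI67, a gene of dividing cells, had 6778 reads in the library titled Bulk and 689 to 995 in the other 3. With the groups of the treatment field, the median log2 ratio of the 9 genes to the ungated library was -0.35 for Claret, 0.0775 for eGFP and 0.17 for Violet, and no gene passed 2-fold in any of the 3. All further values use the titles. Summed reads were 15508179 to 16976909 per library, and mitochondrial genes took 4.18% in Bulk and 5.06% to 5.48% in the slow-cycling libraries. Of the line's own markers, VIM, CD44 and EGFR had at least 5303 reads in each library, ESR1, PGR and CDH1 at most 7, and ERBB2 1415 to 1542. The 7 leukocyte markers together had 10 to 17 reads per library, with PTPRC at 0 to 2. The 3 fibroblast markers together stood at 30.8 CPM in Bulk and 46.8 to 49.4 CPM in the slow-cycling libraries, through PDGFRB and COL1A1, while DCN had 0 to 2 reads; the part of this difference in the results was not tested.

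Class I molecules show peptides from inside the cell to CD8 T cells. A heavy chain, here encoded by HLA-B, HLA-C or HLA-E, pairs with the light chain beta-2 microglobulin, encoded by B2M. Peptides cut by the proteasome enter the endoplasmic reticulum through the transporter made of TAP1 and TAP2, and tapasin, encoded by TAPBP, tethers that transporter to empty class I molecules. NLRC5 is a transactivator of class I genes that acts through the X and Y boxes of their promoters, and interferons and NF-kappa-B are further known inducers. HLA-E shows mainly leader peptides of other class I chains to inhibitory receptors of natural killer cells, and CD274 encodes PD-L1, the ligand that restrains T cells through PD-1.

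The 3 heavy-chain genes and CD274 were higher in all slow-cycling libraries than in Bulk, by 1.72-fold to 2.83-fold, B2M and TAP1 were higher by 1.14-fold to 1.37-fold, and TAP2 and NLRC5 were lower. TAPBP differed from Bulk by at most 1.11-fold. Reads of 2 libraries were compared with a two-sided exact binomial test, adjusted by the Benjamini-Hochberg method over the 14585 genes; reads are said to differ where the adjusted p was under 0.05, and a gene to be called where its log2 ratio was also at least 1 in size, which is 2-fold. The test compares these libraries and not the conditions, and its intervals cover counting error only. In bulk RNA, fewer cells with a transcript and less of it per cell cannot be told apart.

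In Claret, 6 of the 9 genes had more reads than in Bulk, against 33.4% of all genes tested, and 2 had fewer, against 35.4%. There, 1 gene was called higher, against 11.3% of all genes, and 0 lower, against 6.68%. In eGFP, 7 of the 9 had more reads, against 34.0% of all genes, and 2 fewer, against 36.0%. Here 4 genes were called higher, against 11.9%, and 0 lower, against 7.63%. In Violet, 7 of the 9 had more reads, against 33.9% of all genes, and 2 fewer, against 35.4%, while 0 were called higher, against 11.3%, and 0 lower, against 7.01%. HLA-B, HLA-C, HLA-E, B2M, TAP1 and CD274 had more reads in all 3 libraries, and TAP2 and NLRC5 fewer. The median log2 ratio of the 9 genes was 0.40 (Claret), 0.45 (eGFP) and 0.35 (Violet), beside -0.01, -0.01 and 0.00 over all genes. The 3 comparisons share the Bulk library.

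**Figure D1:**
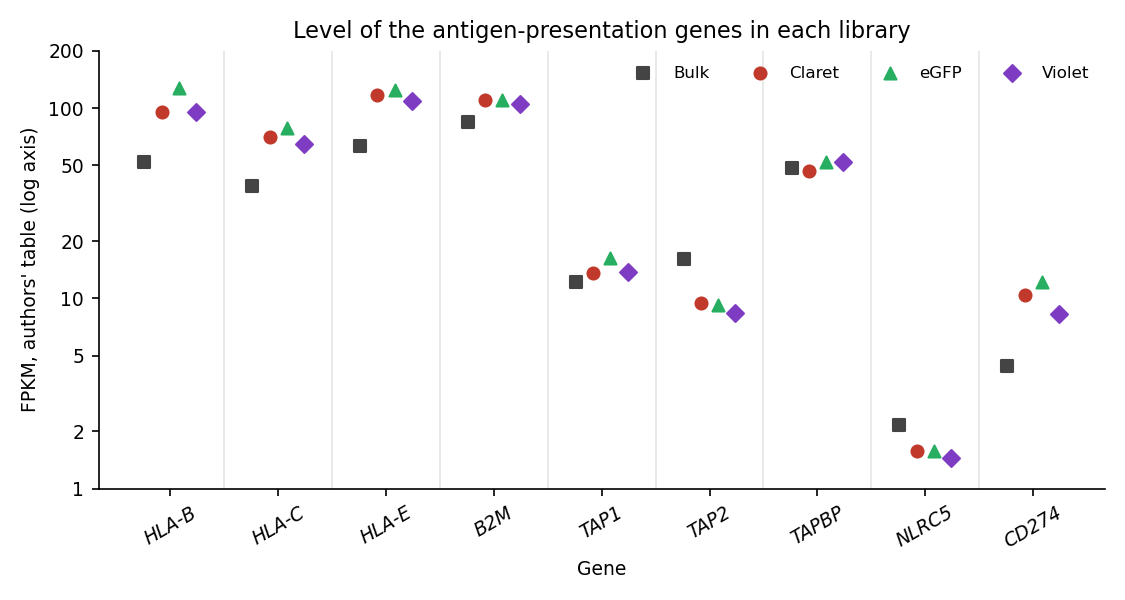
Level of each gene in the 4 libraries, as the authors' FPKM (fragments per kilobase of gene, scaled to library depth) on a log axis; each point is 1 library. The Bulk points of HLA-B, HLA-C, HLA-E and CD274 lie below the other 3 libraries, and those of TAP2 and NLRC5 above them.

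HLA-B (chr6:31269491-31357188 of GRCh38, minus strand) encodes a classical heavy chain. Its level was 51.9 FPKM (Bulk), 95.2 (Claret), 128 (eGFP) and 94.9 (Violet), from 2461, 4929, 6237 and 4647 reads. Bulk was lowest and eGFP highest, and no difference passed the test between Claret and Violet (adjusted p = 0.76, exact binomial test). The log2 ratio to Bulk was 0.90 in Claret (95% interval 0.83 to 0.97), 1.33 in eGFP (1.26 to 1.40) and 0.91 in Violet (0.84 to 0.98). Of all genes tested, 7.34% had a larger ratio in eGFP, and 13.3% in each of the other 2. By FPKM, HLA-B ranked 763 among the 12480 protein-coding genes kept in Bulk and 213 in eGFP.

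HLA-C (chr6:31268749-31272130, minus strand), the neighbouring classical locus, stood at 38.8 FPKM (Bulk), 70.8 (Claret), 78.8 (eGFP) and 64.9 (Violet) (1513, 3014, 3158 and 2611 reads). All 6 pairs of libraries differed in HLA-C reads, in the order eGFP, Claret, Violet, Bulk. That of Claret and Violet was marginal (adjusted p = 0.0413, exact binomial test) and was lost with library-size scaling (0.171) and with no filter on low counts (0.0825). The log2 ratios to Bulk were 0.89 (0.80 to 0.98), 1.05 (0.96 to 1.14) and 0.78 (0.69 to 0.88), of which that of eGFP was called. After a correction for GC content, the eGFP value was 0.87 and no longer called. The longest HLA-C transcript holds 62.7% GC, against a median of 48.3% over the longest transcripts of genes kept.

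HLA-E (chr6:30489467-30494205, plus strand) had 63.0 FPKM (Bulk), 117 (Claret), 124 (eGFP) and 109 (Violet) (2915, 5916, 5906 and 5222 reads). Its order was that of HLA-C, again with all 6 pairs differing in reads, and its slow-cycling libraries lay within 1.13-fold of each other. The pair Claret and Violet (adjusted p = 0.0316, exact binomial test) was lost with library-size scaling (0.223) and with no filter on low counts (0.0641). The log2 ratios were 0.91 (0.85 to 0.98), 1.01 (0.94 to 1.07) and 0.84 (0.77 to 0.90). The call in eGFP was at its limit: the value was 0.98 with DESeq2 size factors, 0.95 after the GC correction and 0.97 on the log2(FPKM + 1) scale, each under 2-fold.

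Heavy-chain genes resemble each other, so a read can match several of them. Of the 31-base words of the HLA-B transcripts, 25.5% also occur in another gene of any kind, on either strand. HLA-C holds 8.86% of them and HLA-E 1.51%. The share in any other gene was 17.0% for HLA-C, 11.8% for HLA-E and 0 for CD274. Such shares can include genes that overlap on the other strand. For HLA-B, AL671883.2, with 0 reads, covers 542 of 3051 exonic bases in this way. The gene models of HLA-B and HLA-C also share 35 exonic bases. The longest run of coding sequence common to both is shown because reads inside it name neither gene; it has 66 bases, lies in exon 3 of 8 of each, at chr6:31356301-31356366 in HLA-B and chr6:31271207-31271272 in HLA-C on the minus strand, and its letters are identical in the GRCh38 reference.
HLA-B and HLA-C, exon 3: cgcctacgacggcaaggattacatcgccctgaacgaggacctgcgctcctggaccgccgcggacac
How reads that match several genes were handled is not given in the sources used here. Summed over HLA-B, HLA-C and HLA-E, which removes the split among them, reads were 6889 (Bulk), 13859 (Claret), 15301 (eGFP) and 12480 (Violet). The log2 ratio of the sum was 0.90 (0.86 to 0.94), 1.14 (1.10 to 1.18) and 0.85 (0.81 to 0.90), so the slow-cycling libraries held 1.81-fold to 2.20-fold the heavy-chain reads of Bulk.

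Within that sum the share of HLA-B was 35.7% in Bulk (95% exact interval 34.6 to 36.9), 35.6% in Claret (34.8 to 36.4), 40.8% in eGFP (40.0 to 41.5) and 37.2% in Violet (36.4 to 38.1). The interval of eGFP does not overlap those of the other 3. The share of HLA-E was 42.3%, 42.7%, 38.6% and 41.8%, lowest in eGFP, and that of HLA-C 22.0%, 21.7%, 20.6% and 20.9%.

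The promoters of HLA-B and HLA-C are shown because both genes were higher in all slow-cycling libraries. They are the 250 bases before the RefSeq start in GRCh38.p14, at chr6:31357180-31357429 and chr6:31272093-31272342 on the minus strand, with motif matches in capitals. The motifs were searched on both strands, from 250 bases before to 50 after the start.
HLA-B: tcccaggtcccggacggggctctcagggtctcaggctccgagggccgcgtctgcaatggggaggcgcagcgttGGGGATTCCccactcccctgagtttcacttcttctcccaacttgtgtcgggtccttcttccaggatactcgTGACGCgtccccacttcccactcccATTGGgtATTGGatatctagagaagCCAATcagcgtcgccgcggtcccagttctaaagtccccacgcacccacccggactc
HLA-C: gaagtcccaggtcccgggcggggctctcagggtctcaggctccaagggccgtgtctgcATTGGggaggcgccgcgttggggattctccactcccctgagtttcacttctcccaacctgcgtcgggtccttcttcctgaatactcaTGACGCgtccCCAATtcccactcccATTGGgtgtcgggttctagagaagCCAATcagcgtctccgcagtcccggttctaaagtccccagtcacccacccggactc
Both hold the X2 box TGACGC, found in 9.14% of all 35116 promoters of this length, and the Y box core ATTGG or its reverse complement CCAAT, found in 34.6%. The first ATTGG after the X2 box is at positions -81 to -77 in HLA-B and -80 to -76 in HLA-C. A separate CCAAT is at -56 to -52 in each. HLA-B has a kappa-B match, GGGGATTCC, at positions -177 to -169 from its start, and HLA-C has none. The kappa-B forms searched were GGGNNTTCC and GGNNTTTCC, which overlap each other and occur in 10.8% of promoters. The 2 promoters were identical at 226 of 246 aligned bases (91.9%). Promoters were matched for 7 of the 9 genes, all but HLA-E and NLRC5. The AP-1 form TGANTCA, present in 7.71% of promoters, was in 0 of these 7 windows, which says only that these letters are not there. A match is a description of the letters and not a bound site.

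B2M (chr15:44711487-44718877, plus strand), the light chain shared by all class I molecules, was at 84.8 FPKM (Bulk), 110 (Claret), 110 (eGFP) and 105 (Violet) (8015, 11366, 10724 and 10261 reads). The 3 slow-cycling libraries were within 1.04-fold of each other, all above Bulk. Log2 ratios were 0.40 (0.36 to 0.44), 0.41 (0.37 to 0.45) and 0.35 (0.31 to 0.40), none called; 28.1% to 31.1% of all genes tested had a larger ratio.

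Set against B2M within each library, the FPKM of HLA-B was 0.612 of that of B2M in Bulk, 0.864 (Claret), 1.16 (eGFP) and 0.902 (Violet). The ratio for HLA-E was 0.743, 1.06, 1.13 and 1.04, and for HLA-C 0.458, 0.643, 0.714 and 0.617. All 3 ratios were lowest in Bulk and highest in eGFP. B2M was the first of the 9 genes by FPKM in Bulk, HLA-E in Claret and Violet, and HLA-B in eGFP. FPKM divides by the length of all annotated exons, 6079 bases for B2M and 2507 to 3051 for the heavy chains, so these orders depend on that annotation.

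**Figure D2:**
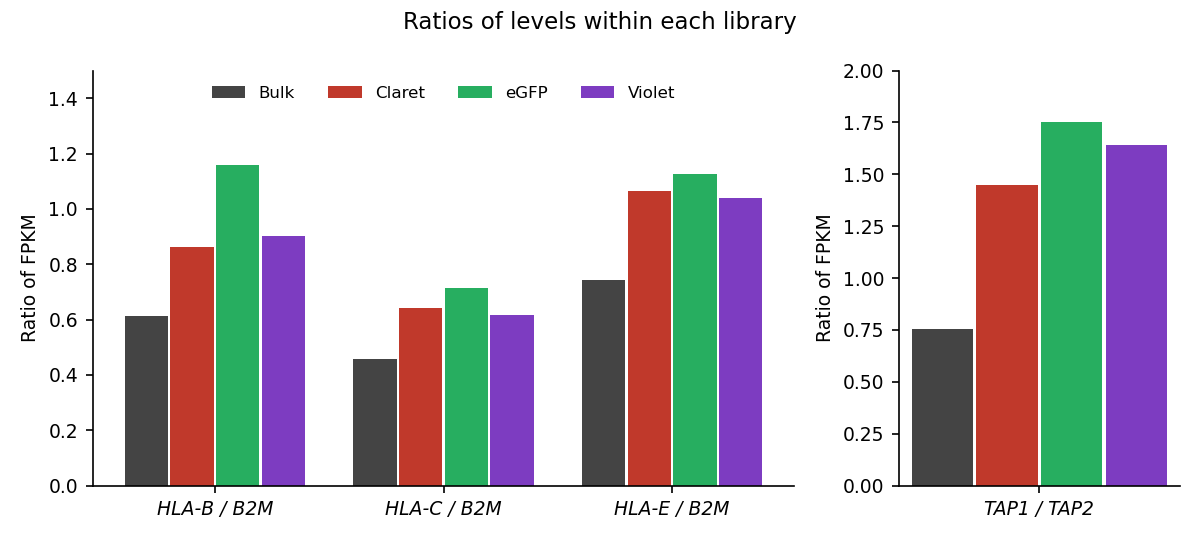
Ratio of FPKM between genes whose proteins pair, as bars from 0, in each library: heavy chains over B2M at left and TAP1 over TAP2 at right. The Bulk bar is the lowest in all 4 ratios and the eGFP bar the highest.

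TAP1 and TAP2, the paired subunits of the peptide transporter, moved apart. TAP1 (chr6:32845209-32853978, minus strand) was at 12.1 FPKM (Bulk), 13.6 (Claret), 16.3 (eGFP) and 13.8 (Violet) (905, 1111, 1248 and 1066 reads). Its reads were highest in eGFP and lowest in Bulk, and Violet and Claret were not told apart (adjusted p = 0.715, exact binomial test). The log2 ratios were 0.19 (0.06 to 0.32), 0.45 (0.33 to 0.58) and 0.23 (0.10 to 0.36).

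TAP2 (chr6:32821833-32838780, minus strand) was at 16.1 FPKM (Bulk), 9.41 (Claret), 9.27 (eGFP) and 8.41 (Violet) (1599, 1020, 947 and 863 reads). It changed by -40.7%, -41.2% and -46.1% from Bulk, and the log2 ratios were -0.75 (-0.87 to -0.64), -0.77 (-0.88 to -0.65) and -0.89 (-1.01 to -0.77). No pair of slow-cycling libraries differed in TAP2 reads (adjusted p = 0.144 to 0.962, exact binomial test). Of all genes tested, 8.72% had a lower ratio in Violet and 12.7% in eGFP. The ratio of TAP1 to TAP2 by FPKM was 0.753 (Bulk), 1.45 (Claret), 1.75 (eGFP) and 1.64 (Violet). By this measure TAP2 was above TAP1 in Bulk and below it in the other 3. A readthrough gene on the same strand, AL669918.1, overlaps 32.3% of the TAP2 exons and was given 0 to 3 reads per library. The order of TAP1 and TAP2 depends on their annotated lengths, 4805 and 6390 bases. The part of the overlap in that order was not tested. TAP1 shares 456 exonic bases with PSMB8-AS1 on the other strand, which had 11 to 18 reads, and whether counting used strand is not given in the sources used here.

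The promoters of both TAP genes are shown because the pair went opposite ways, at chr6:32853705-32853954 for TAP1 (the first of its 2 RefSeq starts) and chr6:32838740-32838989 for TAP2, minus strand, 250 bases before the start with motif matches in capitals.
TAP1: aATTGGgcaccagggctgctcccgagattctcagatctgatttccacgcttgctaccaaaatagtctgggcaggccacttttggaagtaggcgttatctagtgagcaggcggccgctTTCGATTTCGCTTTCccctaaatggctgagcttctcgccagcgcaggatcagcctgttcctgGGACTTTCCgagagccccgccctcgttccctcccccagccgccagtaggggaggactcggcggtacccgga
TAP2: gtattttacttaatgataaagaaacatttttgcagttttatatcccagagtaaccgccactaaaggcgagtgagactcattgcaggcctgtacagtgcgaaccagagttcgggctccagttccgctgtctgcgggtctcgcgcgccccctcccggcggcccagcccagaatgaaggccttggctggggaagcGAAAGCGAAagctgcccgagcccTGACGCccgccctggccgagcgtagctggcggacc
Each holds 1 form of the core of the interferon-stimulated response element, GAAANNGAA, a form that 8.11% of promoters have. TAP1 has 2 overlapping copies on the reverse strand between positions -133 and -119, and TAP2 has 1 copy, GAAAGCGAA, at -58 to -50. TAP1 also has a kappa-B match and the Y box letters ATTGG, and TAP2 has the X2 box letters TGACGC but no Y box core. Of all promoters, 10.8%, 34.6% and 9.14% hold these 3 forms, and a match is not a bound site. The same core was found in B2M, TAPBP and CD274, which makes 5 of the 7 matched genes. HLA-B and HLA-C had no match to GAAANNGAA, which says only that these letters are not there. Other forms of the element were not searched, so this does not show that either promoter lacks it.

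TAPBP (chr6:33299694-33314387, minus strand) was at 48.6 FPKM (Bulk), 46.6 (Claret), 52.3 (eGFP) and 52.3 (Violet) (3822, 4002, 4227 and 4247 reads). Claret and Bulk did not differ (log2 ratio -0.04, interval -0.10 to 0.02, adjusted p = 0.278 by the exact binomial test). eGFP and Violet were above both, at log2 ratios to Bulk of 0.13 (0.07 to 0.20) and 0.15 (0.09 to 0.21). TAPBP was the only one of the 9 whose slow-cycling libraries lay on both sides of Bulk.

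NLRC5 (chr16:56989485-57083531, plus strand), the class I transactivator, had the lowest level of the 9 genes in every library, with 2.17 FPKM (Bulk), 1.58 (Claret), 1.59 (eGFP) and 1.44 (Violet) (417, 333, 314 and 287 reads). It changed by -25.7%, -25.1% and -31.2% from Bulk, at log2 ratios of -0.43 (-0.64 to -0.22), -0.42 (-0.64 to -0.21) and -0.54 (-0.76 to -0.32). The slow-cycling libraries did not differ from each other (adjusted p = 0.546 to 0.988, exact binomial test). Its ratio was below 0 in the libraries where HLA-B, HLA-C, HLA-E and B2M, known targets of the protein, were above 0. Any link between NLRC5 and these genes was not tested.

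CD274 (chr9:5450503-5470566, plus strand) had the largest ratio of the 9 genes in each of the 3 comparisons with Bulk. It was at 4.39 FPKM (Bulk), 10.4 (Claret), 12.2 (eGFP) and 8.29 (Violet) (280, 722, 801 and 547 reads). All 6 pairs of libraries differed, in the order eGFP, Claret, Violet, Bulk. Log2 ratios to Bulk were 1.25 (1.06 to 1.46), 1.499 (1.31 to 1.71) and 0.96 (0.75 to 1.18); the first 2 were called, and that of Violet was called only with library-size scaling (1.01) or after the GC correction (1.00). Its rank by FPKM among protein-coding genes kept went from 7561 in Bulk to 3535 in eGFP. PD-L1 is also held at the cell surface by CMTM6 and CMTM4, proteins that protect it from breakdown. CMTM6 had fewer reads in all 3 libraries (log2 -0.50, -0.46 and -0.34), and CMTM4 in Claret (-0.18) and Violet (-0.15), with -0.06 in eGFP.

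The CD274 promoter, chr9:5450292-5450541 on the plus strand, is shown because its gene had the largest ratios to Bulk.
CD274: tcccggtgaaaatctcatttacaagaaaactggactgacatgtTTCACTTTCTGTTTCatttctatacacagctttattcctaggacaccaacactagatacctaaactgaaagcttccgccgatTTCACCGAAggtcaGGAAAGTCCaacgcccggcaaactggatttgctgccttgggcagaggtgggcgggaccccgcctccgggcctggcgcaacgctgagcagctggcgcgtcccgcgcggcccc
It holds 2 overlapping response-element cores on the reverse strand, TTCACTTTC and TTCTGTTTC, between positions -207 and -193, a kappa-B match, GGAAAGTCC, at -111 to -103, and the gamma-activated form TTCNNNGAA, as TTCACCGAA, at -125 to -117. The last form is in 7.66% of all promoters and, of the 7 matched genes, also in the second promoter of TAP1.

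The genes with the pattern most like that of CD274 were sought among 12471 protein-coding genes, by the distance between log2 CPM values centred on each gene over the 4 libraries. HSD11B1L was nearest, at a distance of 0.0663, with 32, 89, 93 and 64 reads in Bulk, Claret, eGFP and Violet. BMP6 (0.0740) and WNT9A (0.0898) followed. With 4 libraries this describes the order and spacing of 4 points.

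**Figure D3:**
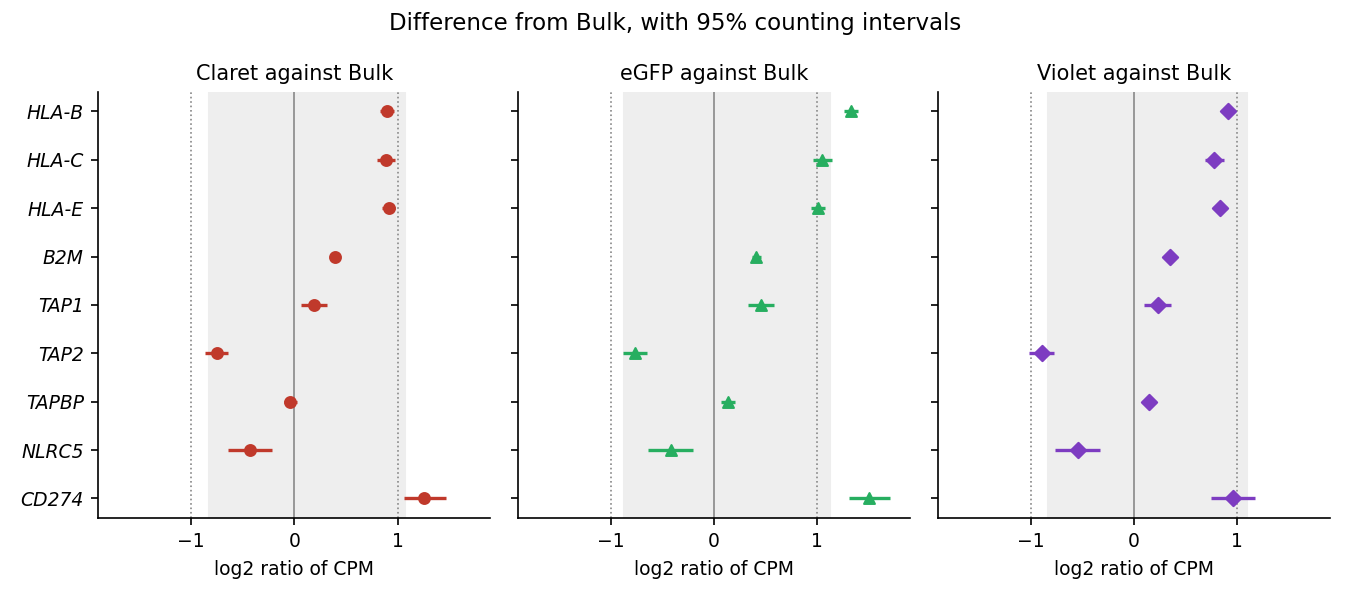
Log2 ratio of CPM of each gene to Bulk, in 1 panel per slow-cycling library; bars are 95% counting intervals, the grey band runs from the 10th to the 90th percentile of all genes kept and dotted lines mark 2-fold. HLA-B, HLA-C, HLA-E and CD274 lie at 0.78 or above in each panel, TAP2 at -0.75 or below.

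Between slow-cycling libraries the differences were smaller, and none of the 9 genes was called at 2-fold in any of these 3 pairs. Of the 14585 genes tested, 46 were called higher and 65 lower in Claret against eGFP. In Claret against Violet these counts were 35 and 84, and in eGFP against Violet 42 and 106. With calls this rare over all genes, their absence is not particular to these 9. Claret against eGFP gave 0 genes with more reads, against 6.14% of all genes tested, and 6 with fewer, against 6.42%. These 6 were HLA-B, HLA-C, HLA-E, TAP1, TAPBP and CD274, from -0.43 (HLA-B) to -0.09 (HLA-E) in log2 ratio. Claret against Violet gave 3 with more, HLA-C, HLA-E and CD274, against 9.67%, and 1 with fewer, TAPBP, against 7.88%. In eGFP against Violet, 6 genes had more reads, against 9.47%, and 0 fewer, against 7.93%. Those 6 were HLA-B, HLA-C, HLA-E, B2M, TAP1 and CD274, from 0.06 (B2M) to 0.54 (CD274); that of B2M was lost with library-size scaling and with no filter on low counts. The library that retained eGFP had the highest CPM of each of the 6 genes that were higher than Bulk throughout, though for B2M it did not differ from Claret (adjusted p = 0.776, exact binomial test). The gap between the highest and the lowest slow-cycling library was widest for CD274, 1.46-fold, and narrowest for B2M, 1.04-fold.

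Of 65 further listed genes of the pathway, 47 passed the filter, and they did not share one direction. Of the 47, 14 (Claret), 17 (eGFP) and 13 (Violet) had more reads than Bulk, against 33.4%, 34.0% and 33.9% of all genes tested. Fewer reads were found for 22, 19 and 21 of them, against 35.4%, 36.0% and 35.4%. Calls higher than Bulk numbered 3 (Claret), 4 (eGFP) and 3 (Violet), against 11.3%, 11.9% and 11.3% of all genes, and calls lower 2, 1 and 2, against 6.68%, 7.63% and 7.01%. Their median log2 ratio was -0.18, -0.06 and -0.02. HLA-F, MR1 and HLA-DMA were called higher, and PSME3 lower, in all 3 libraries.

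Among 12 genes of peptide supply and loading, 0 were called higher and 1 lower in each library. Over all genes tested, 11.3% to 11.9% were called higher and 6.68% to 7.63% lower. PSMB9, a proteasome subunit induced by interferon that is encoded beside TAP1, had 234 reads (Bulk), 453 (Claret), 454 (eGFP) and 397 (Violet). It was higher in all 3, at log2 ratios of 0.84, 0.94 and 0.75, below 2-fold. PSMB10, another such subunit, had fewer reads in Claret (-0.67) and Violet (-0.51), with -0.23 in eGFP. PSME3, which encodes a proteasome activator of the nucleus, had 4167 reads (Bulk), 1912 (Claret), 1583 (eGFP) and 1668 (Violet) (-1.23, -1.41 and -1.32). PSME1, a subunit of the interferon-induced activator, had more reads in eGFP (0.12), and its ratio was 0.06 in Claret and -0.02 in Violet.

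Of 10 other class I and class I-like genes, 7 were kept. HLA-F, a non-classical heavy chain, rose from 29 reads (Bulk) to 142 (Claret), 176 (eGFP) and 113 (Violet), at log2 ratios of 2.11, 2.51 and 1.89. On the log2(FPKM + 1) scale Violet was at 0.87. Of the 31-base words of HLA-F, 26.0% occur in another gene on either strand. HLA-B holds 0.54% of them, HLA-C 0.94% and HLA-E 1.41%. HLA-F shares 535 exonic bases with HLA-F-AS1 on the other strand, which had 40, 53, 90 and 85 reads. MR1, which presents vitamin metabolites to mucosal-associated T cells, had 127 reads (Bulk), 581 (Claret), 500 (eGFP) and 511 (Violet) (2.07, 1.95 and 1.99). The stress ligands of the activating receptor NKG2D did not share one direction. MICB had 1107, 561, 613 and 449 reads (-1.08, -0.86 and -1.30) and was called lower in Claret and Violet. ULBP3 had 95, 55, 55 and 47 reads (-0.87, -0.78 and -0.99). Named after their values were seen, MICA was lower (-0.35, -0.24 and -0.50), and ULBP2 was higher in Claret (0.36) and eGFP (0.30), with 0.14 in Violet.

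Class II genes, which present peptides to CD4 T cells, were near 0. Of 9 listed, only HLA-DMA was kept, a gene for a chaperone that loads class II molecules, with 18 reads (Bulk), 89 (Claret), 84 (eGFP) and 86 (Violet) (2.08, 2.10 and 2.14). The other 8 had at most 18 reads in any library. HLA-DMA shares 55 exonic bases with BRD2 on the other strand, whose reads were 3975 to 4689.

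None of the 18 regulators kept of 20 listed was called in any library, with more reads for 5 (Claret), 6 (eGFP) and 5 (Violet) and fewer for 7 in each. The shares over all genes were 33.4% to 34.0% with more and 35.4% to 36.0% with fewer. Calls over all genes were 11.3% to 11.9% higher and 6.68% to 7.63% lower. STAT2, of the type I interferon pathway, was higher (0.54, 0.63 and 0.63), while its partner IRF9 was lower (-0.75, -0.60 and -0.74), at 48 to 81 reads. The interferon-gamma receptor chain IFNGR2 was higher (0.53, 0.79 and 0.73) and the type I receptor chain IFNAR1 lower (-0.57, -0.61 and -0.70). RFX5, a subunit of the factor that binds the X box, was lower (-0.34, -0.53 and -0.45); it and IRF1 were named after their values were seen. IRF1, an interferon-induced activator of class I genes, did not pass the test in any library (-0.26, 0.14 and -0.29).

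Ligands of lymphocyte receptors other than PD-L1 had 7 of 12 genes kept. Over all genes, 11.3% to 11.9% were called higher and 6.68% to 7.63% lower. Of these 7 ligand genes, 1 was called, in eGFP. That gene was PDCD1LG2, which encodes PD-L2, with 31 reads (Bulk), 52 (Claret), 65 (eGFP) and 47 (Violet) (0.61, 1.01 and 0.57); its call was lost with DESeq2 size factors (0.98) and on the log2(FPKM + 1) scale (0.56). TNFRSF14, the ligand of BTLA, was higher (0.62, 0.73 and 0.51). Of the nectin-family ligands, PVR (-0.42, -0.36 and -0.49) and NECTIN3 (-0.48, -0.45 and -0.29) were lower. NECTIN2, of the same family and named after its values were seen, was higher (0.14, 0.19 and 0.12).

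**Figure D4:**
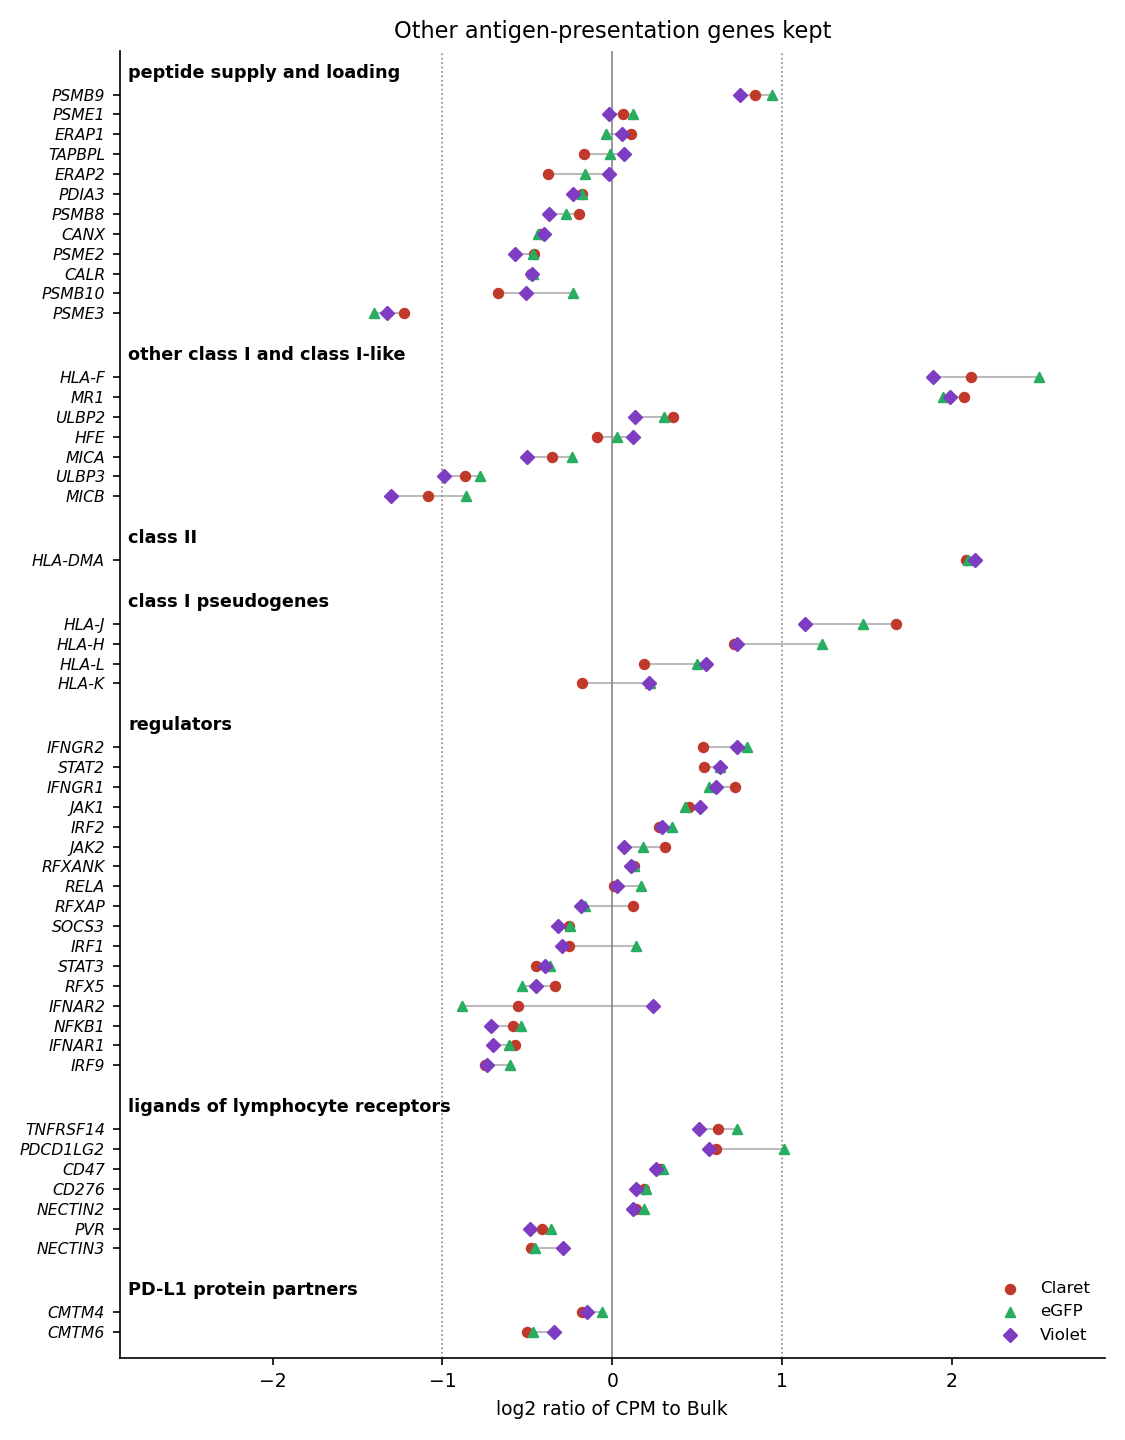
Log2 ratio of CPM to Bulk of the other listed genes kept, 1 regulator left out, by list, with 1 marker per slow-cycling library and a grey line over their range; dotted lines mark 2-fold. HLA-F, MR1 and HLA-DMA lie to the right of the upper line and PSME3 to the left of the lower one in all 3 libraries.

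Of the class I pseudogenes, 4 were kept, with medians of 0.45, 0.86 and 0.65 in log2 ratio to Bulk. HLA-H had 80, 143, 192 and 135 reads and was called in eGFP (1.23). HLA-J had 8, 32, 26 and 20 reads and was called in Claret (1.67) and eGFP (1.48), which the log2(FPKM + 1) scale lowers to 0.64 and 0.54. HLA-L had more reads in eGFP (0.50) and Violet (0.55), and HLA-K did not differ (-0.18, 0.22 and 0.22). With all 17 listed class I genes and pseudogenes summed, the log2 ratios were 0.89, 1.13 and 0.85, close to the sum over HLA-B, HLA-C and HLA-E.

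The genes HLA-B, HLA-C, HLA-E, TAP1, TAP2 and TAPBP lie in the major histocompatibility complex, a gene-dense stretch of chromosome 6. From the start of HLA-F to the end of TAPBP, chr6:29722775-33314387 (3.59 Mb), the table has 305 other genes, of which 107 were kept. Of these 107, 17 (Claret), 19 (eGFP) and 15 (Violet) were called higher, against 11.3%, 11.9% and 11.3% of all genes tested, and 5 lower in each library, against 6.68%, 7.63% and 7.01%, with medians of 0.11, 0.12 and 0.12. The median ratio over the 3 libraries was above 0 for 60 and below 0 for 47. For 18 of the 107 it was at least that of HLA-B (0.91). Within single libraries, 13.3% (Claret), 7.34% (eGFP) and 13.3% (Violet) of all genes tested had a larger ratio than HLA-B. Shares of all genes by the median over the 3 libraries were not computed, so the counts by that median only describe the region.

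**Figure D5:**
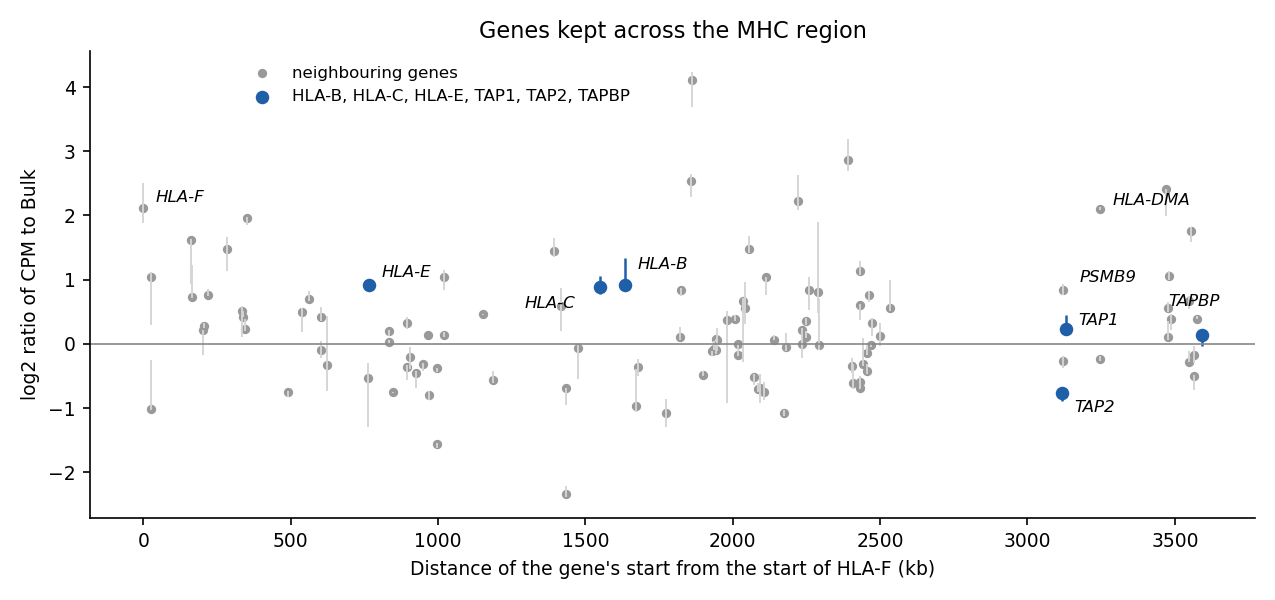
Median log2 ratio to Bulk over the 3 slow-cycling libraries, with a line from the lowest to the highest, against distance along chromosome 6 in kilobases from the start of HLA-F. TAP1 and TAP2 lie on either side of 0. Of 107 neighbours, 18 lie at or above HLA-B (0.91). The share of all genes at or above that median was not computed.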

How the data were processed

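Groups were taken from sample titles. The authors deposited a table of whole-number read counts per gene without normalization and an FPKM table made from the same counts. Per the submitters' processing notes, the tools were HISAT2 2.0.5 and featureCounts 1.5.0-p3; the genome build, the strand setting and the treatment of multi-mapping reads are not given in the sources used here. Start and end of 58724 of 58735 genes equal those of GENCODE 29, so coordinates are given as GRCh38.

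Genes with a mean of at least 1 CPM over the 4 libraries were kept (14585). TMM factors came from edgeR 4.0.16 (R 4.3.3), and log2 ratios used a prior count of 2. A quasi-likelihood fit in edgeR needs replicates and could not be made with 1 library per group. The reads of 2 libraries were compared with the exact conditional binomial test in scipy 1.17.1. It was tried on simulated counts that held counting error only, so the trial says nothing of variation between cultures. Intervals are exact (Clopper-Pearson) at 95% and, without molecular identifiers, cover counting error only. The depth of 15508179 to 16976909 reads makes 3 reads, the limit that 0 reads allow, 0.177 to 0.190 CPM. FPKM values served as levels and for 1 alternative, log2(FPKM + 1), which understates changes of low genes.

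The 9 genes and the lists were chosen with earlier results of these data known. Of the lists, genes called in all 3 slow-cycling libraries were named, and otherwise the 2 with the largest and the 2 with the smallest median ratio. Of the regulators, 1 is not reported here by name, and it stays in the counts. Alternatives were library-size scaling, DESeq2 1.42.0 size factors, other filters, a prior count of 0.5, a GC correction, FPKM and the groups of the treatment field. Promoter sequences are from RefSeq (GRCh38.p14); other sequence is from GRCh38 with GENCODE 29.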

Additional observations from a re-analysis of the deposited data

Results flagged for a closer look

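Compared directly with each other, libraries of slow-cycling cells differed in 7 of the 9 genes in at least 1 pair. The exact binomial test on the reads of each pair was used, with Benjamini-Hochberg adjustment over all genes. Within single pairs, 6.14% to 9.67% of all genes tested had more reads and 6.42% to 7.93% fewer. The share of all genes that differ in at least 1 pair was not computed. Each pair is 1 library against 1, so the difference between sorts has no replicate check.

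Claret was below eGFP for HLA-B (log2 ratio -0.43), TAP1 (-0.26), CD274 (-0.24), TAPBP (-0.17), HLA-C (-0.16) and HLA-E (-0.09). Claret was above Violet for CD274 (0.30), HLA-C (0.10) and HLA-E (0.08), and below it for TAPBP (-0.19). eGFP was above Violet for CD274 (0.54), HLA-B (0.42), HLA-C (0.27), TAP1 (0.22), HLA-E (0.17) and B2M (0.06). The adjusted p of these 16 ratios ran from 9.72e-54 for HLA-B (Claret to eGFP) to 0.0413 for HLA-C (Claret to Violet), in the exact binomial test. TAP2 and NLRC5 gave no such difference in any pair.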

How the results depend on the processing

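No paired analysis was possible because each group holds 1 library. For the same reason no replicate could be left out, and the spread between cultures is unknown. The largest shifts came from taking groups from the treatment field: called genes went from 1 to 0 in Claret and from 4 to 0 in eGFP, the median ratio from 0.40 to -0.35 in Claret, which reverses it, from 0.45 to 0.0775 in eGFP and from 0.35 to 0.17 in Violet, the genes whose reads differ in eGFP from 9 to 4, and those in Claret against Violet from 4 to 9. With a minimum of 10 CPM, called pathway genes went from 5 to 3 in Claret, 5 to 2 in eGFP and 5 to 3 in Violet, since fewer genes were tested. After the GC correction, 2 of the 9 genes were called in eGFP and 1 in Violet. Library-size scaling also gave 1 in Violet, moved the summed heavy-chain ratio in Violet from 0.85 to 0.91, left 2 genes whose reads differ between Claret and Violet, TAPBP and CD274, and turned PSME1 in Violet from -0.02 to 0.0313. With no filter on low counts, the same 2 genes differed between Claret and Violet. DESeq2 size factors gave 0.81 for the sum in Violet. The cause of these shifts was not tested apart from the filter. The median log2 ratio of all genes lay between -0.0411 and 0.053 under the 3 scalings. A prior count of 0.5 changed none of the values for the 9 genes by enough to change a call. At this depth NLRC5, with 287 to 417 reads, had the widest interval of the 9 genes against Bulk.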

Other observations

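The following genes belong to the lists above but were named after their values were seen. CALR, CANX and PDIA3, which encode proteins that help class I chains fold in the endoplasmic reticulum, each had fewer reads than Bulk in the 3 slow-cycling libraries, in the exact binomial test on reads. TAPBP, of the same loading complex, had more reads in eGFP and Violet, and its relative TAPBPL did not differ (-0.16, -0.0105 and 0.0682). CALR, which encodes calreticulin, was at log2 ratios of -0.48, -0.47 and -0.47 in Claret, eGFP and Violet. CANX, which encodes calnexin, was at -0.42, -0.43 and -0.40, and PDIA3, the disulfide isomerase of the loading complex, at -0.18, -0.18 and -0.23. The interferon-induced proteasome genes PSMB8 (-0.19, -0.27 and -0.37) and PSME2 (-0.46, -0.46 and -0.57) were lower as well, unlike PSMB9. JAK1, the kinase shared by interferon receptors, was higher (0.45, 0.43 and 0.52), as was IFNGR1 (0.72, 0.57 and 0.61). NFKB1, a subunit of NF-kappa-B, was lower (-0.58, -0.54 and -0.71), and RELA, its partner, was at 0.0119, 0.17 and 0.0252, of which that of eGFP passed the test. None of these genes reached 2-fold in any library.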
